A study of Homo sapiens with 8 samples.

Results

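The genes HLA-B, HLA-C, HLA-E, B2M, TAP1, TAP2, TAPBP, PSMB8 and PSMB9, which build and load MHC class I molecules, were examined for FLI1 binding in germinal center B-cell (GCB) diffuse large B-cell lymphoma (DLBCL) cells. They are 9 of the 20136 protein coding genes of the annotation. They were chosen by their function, but with earlier results of these data known. For each gene, the peak with the highest −log10 q among those centred within 3 kb of any annotated transcription start site (TSS) was taken as its best promoter peak.

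FLI1 was measured by ChIP-Seq, which sequences the DNA fragments pulled down with an anti-FLI1 antibody, in OCI-Ly1 and VAL. Both are established GCB DLBCL lines for which the labels name no treatment or genetic change, and each gave 2 FLI1 libraries made with the same rabbit polyclonal antibody. Samples of input DNA, 4 in all, were sequenced beside them and were not analysed here. The labels do not say whether replicates came from separate cultures. The first OCI-Ly1 replicate was not used: of its 37 listed intervals 33 are longer than 1 Mb, and a single interval of 58.78 Mb covers all 8 genes on chromosome 6 and one of 102.5 Mb covers B2M on chromosome 15. OCI-Ly1 is therefore represented by 1 library, its replicate 2, and is named without a number below, and VAL by 2. A peak was called passing at a −log10 q of at least 3, a false discovery rate of 0.001. Of the listed peaks, 5354 of 1107379 passed for OCI-Ly1, 973 of 237178 for the first VAL replicate and 6474 of 986629 for the second. The lists are thus dominated by weak intervals, and a listed peak is not by itself a binding site.

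MHC class I molecules carry peptides from inside the cell to its surface, where cytotoxic T cells read them. The immunoproteasome subunits cut proteins into peptides, the TAP transporter carries these into the endoplasmic reticulum, and tapasin holds the transporter next to the empty class I heavy chain until a peptide fits. Many lymphomas lose surface class I, and the promoters of these genes are known targets of interferon, NF-κB and NLRC5 signals. FLI1 is an ETS factor, and ETS factors bind a GGAA core, most strongly where it is preceded by CC.

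None of the 9 genes had a passing promoter peak in any of the 3 libraries. The share of all protein coding genes with one was 19.0% in OCI-Ly1, 3.14% in VAL replicate 1 and 20.9% in VAL replicate 2. In both cell lines 12.6% passed. A count of 0 of 9 allows a share of up to 33.3% by counting error, which takes in these background shares, so the 9 genes cannot be said to be bound less often than other genes. Genes near these members were not devoid of passing peaks. The stretch between the 5′ ends of HLA-E and TAPBP spans 2.82 Mb. Of the 128 other protein coding genes in it, 25 passed in OCI-Ly1 (19.5%) and 34 in VAL replicate 2 (26.6%).

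**Figure D1:**
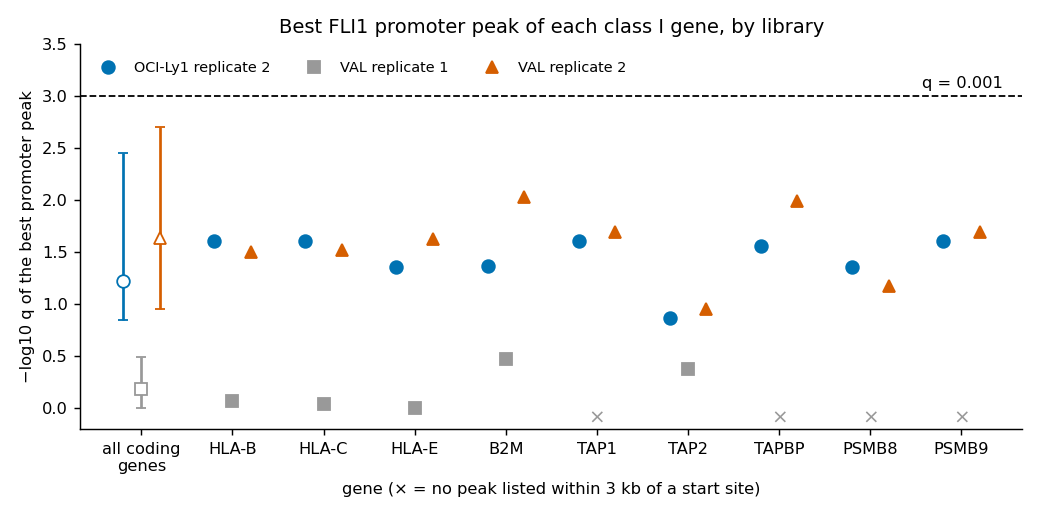
The −log10 q of the best promoter peak (vertical axis) is plotted for each of the 9 genes in 3 libraries, with the median and quartiles of all protein coding genes at the left (open symbols) and a dashed line at the passing threshold. Every value lies below the line, the highest being 2.03 for B2M in VAL replicate 2, and 4 genes have no listed promoter peak in VAL replicate 1.

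The best peaks of the 9 genes were weak. In OCI-Ly1 their −log10 q ran from 0.873 to 1.61 with a median of 1.56, where the median of all protein coding genes was 1.22. In VAL replicate 2 they ran from 0.952 to 2.03 with a median of 1.63, beside 1.64 for all protein coding genes. In VAL replicate 1 only 5 of the 9 genes had a listed promoter peak, and the highest −log10 q was 0.473.

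The sequences under 3 of these weak peaks, and under 2 passing peaks next to members of the group, are given first, since the later results refer to them. Each is read 5′ to 3′ from GRCh37, and capitals mark the GGAA core or its complement TTCC, except at TAP1, where they mark CCGGAA alone. The first is the sequence within 50 bp of the OCI-Ly1 summit upstream of HLA-C (chr6:31239951-31240051, minus strand, outside any annotated transcript). The second holds 30 bases of the B2M promoter just downstream of the OCI-Ly1 summit (chr15:45003570-45003599, plus strand). The third spans both summits that TAP1 and PSMB9 share (chr6:32820580-32820687, minus strand, in an intron of TAP1 and of a long PSMB9 transcript). The fourth lies beyond the 3′ end of TAPBP (chr6:33267198-33267298, minus strand) and the fifth downstream of HLA-E, in an exon of the non-coding gene LINC02569 (chr6:30484066-30484166, plus strand).
HLA-C promoter: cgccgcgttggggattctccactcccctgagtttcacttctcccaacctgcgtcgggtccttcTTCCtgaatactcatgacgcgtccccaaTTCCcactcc
B2M promoter: agaaaaGGAAactgaaaacgGGAAagtccc
TAP1 and PSMB9: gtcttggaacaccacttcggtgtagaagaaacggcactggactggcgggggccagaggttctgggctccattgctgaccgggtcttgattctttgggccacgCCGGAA
TAPBP 3′ side: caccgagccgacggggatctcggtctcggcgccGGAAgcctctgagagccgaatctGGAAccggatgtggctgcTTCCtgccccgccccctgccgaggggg
LINC02569 start: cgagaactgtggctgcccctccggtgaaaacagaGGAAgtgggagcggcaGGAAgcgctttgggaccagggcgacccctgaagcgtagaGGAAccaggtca

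The class I heavy chains bind the peptide. HLA-B (ENSG00000234745, chr6:31321649-31334844, minus strand) and HLA-C (ENSG00000204525, chr6:31236526-31239907, minus strand) present peptides to cytotoxic T cells, and HLA-E (ENSG00000204592, chr6:30457286-30461971, plus strand) presents leader peptides of other class I chains to natural killer cells. The best peak of HLA-B had a −log10 q of 1.61 in OCI-Ly1, 0.0707 in VAL replicate 1 and 1.5 in VAL replicate 2. These were 3 different places: the OCI-Ly1 summit lay 12249 bp upstream of the canonical start, near the start of a long transcript, and the VAL replicate 2 summit lay 1876 bp downstream of it, in an exon. Near the canonical start of HLA-B itself, OCI-Ly1 had a peak with a −log10 q of 0.0188 from 2 reads, its summit 629 bp downstream. VAL replicate 2 had one of 0.952 from 3 reads, its summit 50 bp downstream.

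The best peak of HLA-C had a −log10 q of 1.61 in OCI-Ly1, 0.0404 in VAL replicate 1 and 1.52 in VAL replicate 2. In OCI-Ly1 the summit lay in the core promoter, 132 bp upstream of the canonical start, with 5 reads over a local background of 0.492. The best peak of VAL replicate 2 lay at the other end of the gene, 3839 bp downstream of that start, but a second listed peak of this library had its summit 174 bp upstream of the start, 42 bp from the OCI-Ly1 summit, with 4 reads and a −log10 q of 1.17. The HLA-C window printed above holds 2 GGAA cores and 1 match to the κB consensus, and no CCGGAA.

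HLA-E had a best −log10 q of 1.36 in OCI-Ly1, 0 in VAL replicate 1 and 1.63 in VAL replicate 2. Its summits lay 2321, 1064 and 3005 bp downstream of its start, all in an intron. The VAL replicate 2 value fell to 0.062 when peaks were assigned by their summits or within 1 kb of a start, and the OCI-Ly1 value was 0.496 within 1 kb. HLA-E was the only member with no listed peak within 500 bp of its canonical start in VAL replicate 2. Its nearest passing peaks lay 21.6 kb beyond the gene in OCI-Ly1 and 21.0 kb beyond it in VAL replicate 2, at the start of LINC02569. There the fold enrichment over the local background was 7.63 in OCI-Ly1 (10 reads, −log10 q of 7.47) and 8.83 in VAL replicate 2 (11 reads, −log10 q of 9.80), with summits at 30484116 and 30484114 of chromosome 6. The LINC02569 sequence printed above holds 3 GGAA cores and no CCGGAA. VAL replicate 1 listed no peak with a summit within 500 bp of this start.

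B2M (ENSG00000166710, chr15:45003556-45011049, plus strand) encodes β2-microglobulin, the light chain that pairs with the HLA-B, HLA-C and HLA-E heavy chains. Of the 9 genes it had the highest value in both VAL libraries. Its best −log10 q was 1.37 in OCI-Ly1, 0.473 in VAL replicate 1 and 2.03 in VAL replicate 2. All 3 summits lay close to the canonical start: 146 bp upstream, 467 bp downstream and 53 bp downstream, the last in the first coding exon. The VAL replicate 2 peak had 6 reads (95% Poisson interval 2.20 to 13.1) over a background of 0.628, and 8 reads would have been needed to pass at that background. Of protein coding genes, 47.0% were higher than B2M in OCI-Ly1, while 27.8% were in the first VAL replicate and 32.8% in the second.

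The OCI-Ly1 summit of B2M lay at the edge of a cluster of motif matches. The 30 bases printed above hold 2 overlapping matches to GAAANNGAAA, the repeat that interferon regulatory factors bind, together with 2 GGAA cores and 1 match to the κB consensus. The cores and these matches overlap, so they cannot be told apart as sites. The protein coding genes closest to B2M in the 3 values were PATL2 (distance 0), which has its own start next to B2M and takes the same peaks, then LTBR, the lymphotoxin receptor (distance 0.114), and AK8 (distance 0.133), where the distance is Euclidean in −log10 q over 3 libraries.

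TAP1 and TAP2 form the peptide transporter, and PSMB8 and PSMB9 encode inducible catalytic subunits of the immunoproteasome. The genes lie side by side on chromosome 6: TAP2 (ENSG00000204267, chr6:32789610-32806516), PSMB8 (ENSG00000204264, chr6:32808494-32812456) and TAP1 (ENSG00000168394, chr6:32812986-32821593) on the minus strand, and PSMB9 (ENSG00000240065, chr6:32811913-32827628) on the plus strand. TAP1 and PSMB9 start back to back, so one peak can lie within 3 kb of both. Within 34 kb on the TAP2 side and 9 kb on the PSMB9 side of the TAP1 start, OCI-Ly1 listed 27 peaks, VAL replicate 1 listed 4 and VAL replicate 2 listed 20. The highest −log10 q among them was 1.61, 0.382 and 2.56, so no listed peak of the block passed.

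**Figure D2:**
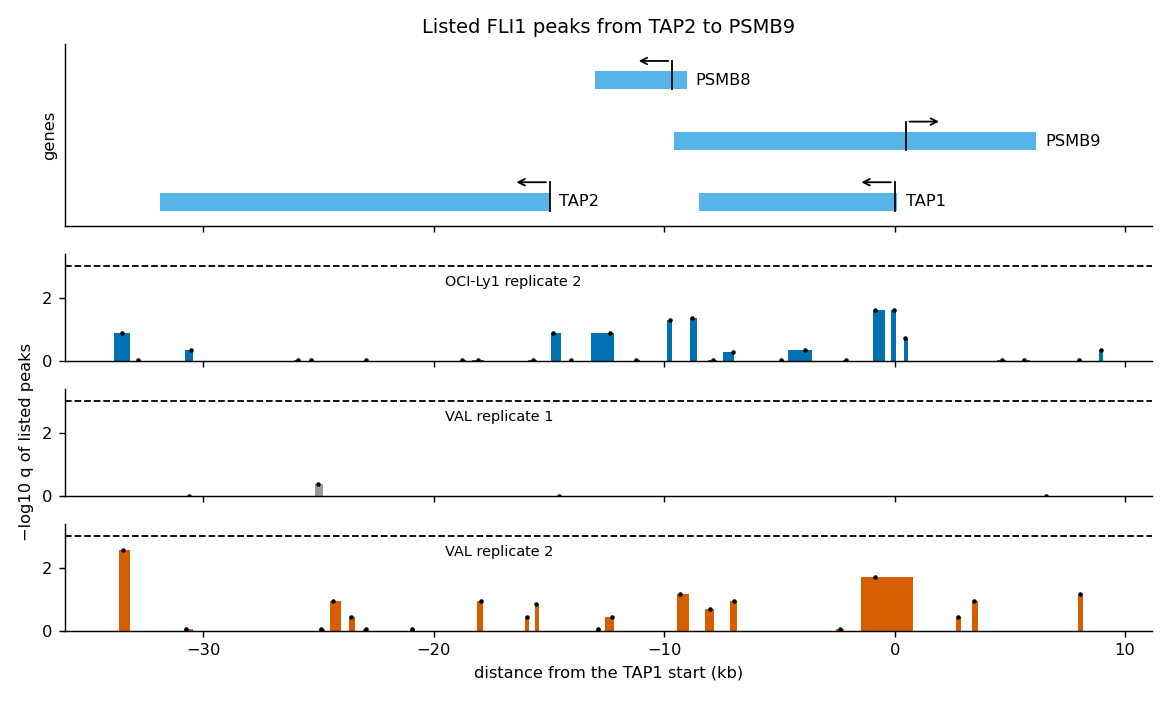
Listed FLI1 peaks are drawn to scale against the distance from the canonical TAP1 start in kb, with the genes at the top (arrows mark canonical starts and the direction of transcription), the height of a bar giving the −log10 q of a peak, black dots its summit and the dashed lines the passing threshold. The broad VAL replicate 2 peak over the shared TAP1 and PSMB9 start and the OCI-Ly1 replicate 2 peak within it reach 1.69 and 1.61, and no bar in any library reaches the line.

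TAP1 and PSMB9 shared their best peak in OCI-Ly1 and again in VAL replicate 2, and at no other member did the best peaks of both lines have summits within 100 bp. The −log10 q was 1.61 in OCI-Ly1 and 1.69 in VAL replicate 2, and VAL replicate 1 listed no promoter peak for either gene. The summits, at 32820637 in OCI-Ly1 and 32820630 in VAL, were 7 bp apart and lay 844 and 851 bp downstream of the canonical TAP1 start. Summits within 100 bp of each other were found for 2 of the 9 genes, which is 1 site, beside 21.3% of the 19636 protein coding genes with a peak in both libraries and 8.83% of those passing in neither.

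The shared TAP1 and PSMB9 peak was also the only best member peak beside a CCGGAA, the last 6 bases of the sequence printed above (chr6:32820580-32820585). Its centre lay 47.5 bp from the VAL summit and 54.5 bp from the OCI-Ly1 summit, so it falls within 50 bp in VAL only. The peak rested on 5 reads in OCI-Ly1 (background 0.492) and on 4 in VAL (background 0.318). In OCI-Ly1 a second peak with the same −log10 q and 5 reads had its summit 8 bp downstream of the TAP1 start.

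TAP2 had the lowest best values within 3 kb in OCI-Ly1 and VAL replicate 2. Its −log10 q was 0.873 in OCI-Ly1, 0.382 in VAL replicate 1 and 0.952 in VAL replicate 2, from 3 to 4 reads, and the 3 summits lay at different places. Within 1 kb of a start, or with starts of protein coding transcripts only, the VAL replicate 1 value of TAP2 was 0. PSMB8 had a −log10 q of 1.36 in OCI-Ly1 from 4 reads and 1.18 in VAL replicate 2 from 5 reads, at summits 865 and 347 bp upstream of its canonical start, and none was listed in VAL replicate 1. The nearest passing peaks of these 4 genes were far away, 340 to 361 kb in OCI-Ly1 and 84.6 to 106 kb in VAL replicate 2.

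TAPBP (ENSG00000231925, chr6:33267471-33282061, minus strand) encodes tapasin, the loading chaperone. Its best promoter peak had a −log10 q of 1.56 in OCI-Ly1 and 1.99 in VAL replicate 2, where the summits lay 388 and 11567 bp downstream of the canonical start, and none was listed in VAL replicate 1. Near the canonical start, OCI-Ly1 and VAL replicate 2 listed peaks with summits 17 bp apart, 388 and 371 bp downstream, with 5 and 4 reads and a −log10 q of 1.56 and 1.17. Within 1 kb of a start, or with starts of protein coding transcripts only, the VAL replicate 2 value of TAPBP was 1.17. Of the 36-mers within 50 bp of the best VAL replicate 2 summit, 93.9% occur at more than 1 place of the genome, beside 7.41% of the 75-mers.

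TAPBP was also the one member with a passing peak within 10 kb of the gene, and this peak was looked at after its values were seen. It overlaps the 3′ end of TAPBP, next to the start of the neighbouring gene RGL2 and over that of a non-coding gene (ENSG00000289100). Its centre is 5009 bp from the nearest TAPBP start in OCI-Ly1 and 4606 bp in VAL replicate 2. The fold enrichment was 12.2 in OCI-Ly1 (18 reads, 95% Poisson interval 10.7 to 28.4, −log10 q of 17.3) and 11.4 in VAL replicate 2 (16 reads, interval 9.15 to 26, −log10 q of 15.4). VAL replicate 1 listed a peak there with 11 reads and a −log10 q of 1.77, which did not pass. The sequence printed above holds 1 CCGGAA, centred 16.5 bp from the OCI-Ly1 summit, and 3 GGAA cores in all. A passing peak within 10 kb was found for 1 of 9 members in OCI-Ly1 and in VAL replicate 2 and for 0 in VAL replicate 1, beside 28.4%, 31.9% and 5.48% of protein coding genes.

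The weakness of the member peaks can be put in reads. The best peaks of the 9 genes had 3 to 5 reads at the summit in OCI-Ly1 and 3 to 6 in VAL replicate 2, where the median passing peak had 8. At the local background of each gene, 6 to 8 reads were needed to pass in either library, so the members fell short by 2 to 3 reads. The needed number lay within the 95% Poisson interval of all 9 genes in both libraries. The low read numbers fix this outcome: at 3 reads, the lowest here, the interval already reaches 8.77, above the 8 reads needed at most. At such numbers a site of passing strength cannot be told from these peaks, nor from others with as few reads. The share of other genes for which this holds was not computed. Each peak was also picked as the best near its gene, which the intervals do not cover. In VAL replicate 1, where the median passing peak had 17 reads, the 5 listed peaks had 4 to 8 reads, 9 to 14 were needed, and the needed number lay within the interval of 2 genes, B2M and TAP2. Intervals cover counting error only.

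**Figure D3:**
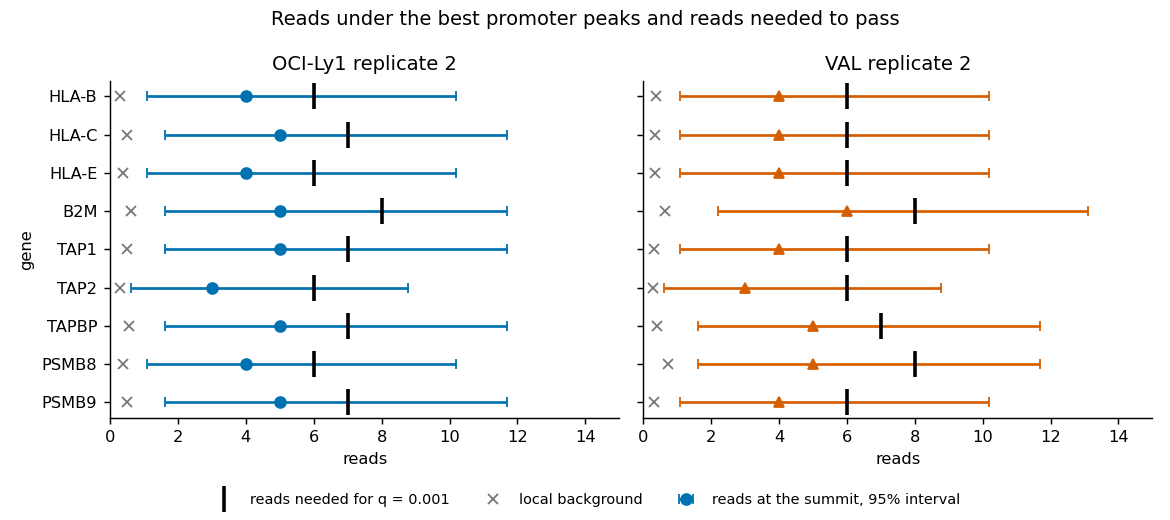
Reads at the summit of the best promoter peak (symbols, with 95% Poisson intervals), the local background (crosses) and the reads needed to pass (black ticks) are plotted for each gene in OCI-Ly1 replicate 2 and VAL replicate 2. Every symbol lies 2 to 3 reads left of its tick, and every interval reaches past it.

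Listed peaks close to the start sites were common, as they are in other genes. Within 500 bp of the canonical start, all 9 members had a listed peak in OCI-Ly1, 2 had one in VAL replicate 1 and 8 had one in VAL replicate 2. The share of protein coding genes with one was 82.0%, 28.4% and 84.0%, so these counts do not set the members apart. Per kb within reach of their start sites, the members had 0.287 to 0.89 listed peaks in OCI-Ly1, where the median of protein coding genes was 0.5, and 0.333 to 0.81 in VAL replicate 2, where it was 0.498. The members have 3 to 17 distinct start sites each (median 9) beside a median of 5 for protein coding genes, so more places were searched per member.

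The class I heavy chain genes resemble each other, and the methods kept only reads with a single position. Of the 36-mers within 500 bp of the canonical start, 8.9% occur at more than 1 place of the genome for HLA-B, 9.42% for HLA-C and 14.6% for HLA-E, beside 0% for B2M, TAP1, TAPBP, PSMB8 and PSMB9 and 6.63% for TAP2. Of the 75-mers there, 0% did for any member. In all such counts only places on the main chromosomes were searched, so copies on other sequences of an assembly were missed. The read length is not given in the sources used here. Beside TAPBP in VAL replicate 2, repeated 36-mers lay within 50 bp of the best summit of TAP2 (57.6%) and HLA-E (47.0%), both in OCI-Ly1. Of the 75-mers at these TAP2 and HLA-E summits, 0% are repeated. The part of repeated sequence in the values was not tested.

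The core promoters of the 9 genes had GGAA but not CCGGAA. From 250 bases before to 50 after the canonical start, on both strands, none of the 9 held CCGGAA, which 22.8% of 19856 protein coding promoters hold. A count of 0 of 9 allows a share of up to 33.3% by counting error, which takes in 22.8%. The shorter GGAA was in all 9 and in 94.8% of promoters. CCGGAA lay within 50 bp of the summit of 48.1% of passing promoter peaks in OCI-Ly1 and 40.6% in VAL replicate 2, and of 7.09% and 6.54% of the best peaks that did not pass. Of the 8 distinct best member peaks of a library, 0 held it in OCI-Ly1 and 1 did in VAL replicate 2, the TAP1 and PSMB9 peak.

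The passing share differed between promoters with and without CCGGAA. Of protein coding genes with CCGGAA in the canonical promoter, 43.7% passed in OCI-Ly1 and 43.8% in VAL replicate 2, and of those without it 11.9% and 14.3% did. All 9 members belong to the class without it, with 0 passing. The class rests on the canonical promoter alone, whereas a passing peak may lie within 3 kb of any start. Whether the lack of CCGGAA plays a part in the count of 0 was not tested. Matches to GAAANNGAAA were in 5 members (B2M, TAP1, TAP2, TAPBP and PSMB8) and in 3.29% of promoters, and matches to the κB consensus in 5 (HLA-B, HLA-C, B2M, TAP1 and TAPBP) and in 6.55%. TGACG was in 6 members and 29.3% of promoters, CCAAT in 6 and 36%, and GGGCGG in 6 and 61.5%. GGAA and κB or GAAANNGAAA matches often overlap. A match is a description of sequence and not a bound site.

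**Figure D4:**
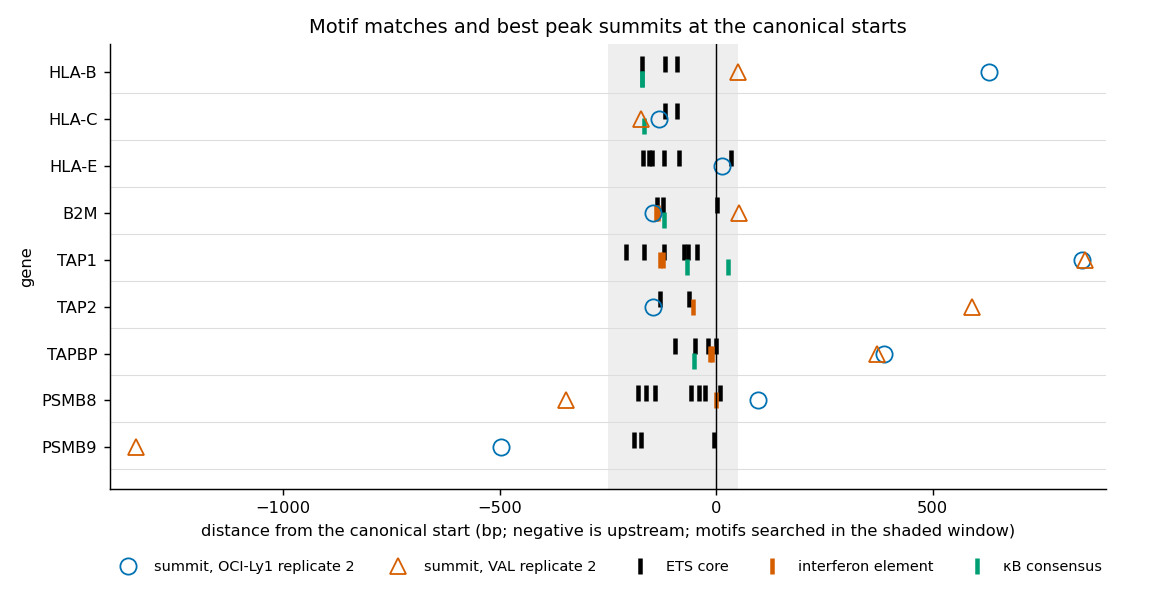
Positions of GGAA cores (black), GAAANNGAAA matches (interferon element, orange) and κB consensus matches (green) in the searched window (grey, 250 bases before to 50 after the canonical start) are plotted for each gene, with the summit of the best listed peak that reaches within 500 bp of the start in OCI-Ly1 replicate 2 (circles) and VAL replicate 2 (triangles), in bp from the start. The summits of HLA-C lie 42 bp apart within the searched window, those of TAPBP 17 bp and of TAP1 7 bp apart downstream of it, and those of the other genes are farther apart or lie in 1 library.

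Of 28 other genes of the class I pathway, 5 passed in OCI-Ly1 (17.9%), 3 in VAL replicate 1 (10.7%) and 8 in VAL replicate 2 (28.6%), beside the background of 19.0%, 3.14% and 20.9%. Individual values are given for those of the 26 genes reported here that passed in a library. NLRC5, IRF1 and PSMB10 are given too. They passed in no library and were chosen after their values were seen.

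Among the regulators of the pathway, RFXANK and NFYA passed in both cell lines. RFXANK, a subunit of the RFX complex at class I and class II promoters, had a −log10 q of 15.4 in OCI-Ly1, 8.89 in VAL replicate 1 and 11.3 in VAL replicate 2, at a start it shares with BORCS8 and MEF2B. NFYA, a subunit of the CCAAT-binding factor NF-Y, had 5.97 in OCI-Ly1 and 5.19 in VAL replicate 2, nearest to the start of OARD1, and NFYC had 5.72 in VAL replicate 2 and 2.43 in OCI-Ly1. IRF2, a repressor and activator of interferon elements, passed in OCI-Ly1 (6.96) and had 2.70 in VAL replicate 2. The IRF2 summits lay 1413 bp downstream and 687 bp upstream of its canonical start. NLRC5, the class I transactivator, reached 0.873 in OCI-Ly1 and 2.58 in VAL replicate 2, at summits 36943 and 57441 bp downstream of its canonical start. IRF1 reached 2.43 and 2.37 in these libraries, at summits 197 bp downstream and 5951 bp upstream.

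Among the other processing and loading genes, PSME2, a proteasome activator subunit, passed in VAL replicate 2 with 3.10 at the start of EMC9 (1.57 in OCI-Ly1). TAPBPL, the tapasin-related peptide editor, had 3.42 in VAL replicate 2 beside 2.0 in OCI-Ly1. Its summits lay 129 bp upstream and 10043 bp downstream of its canonical start. PSMB10, the remaining inducible proteasome subunit, reached 2.43 and 2.70. Of 5 other class I molecules, HLA-F alone passed, in VAL replicate 2 (−log10 q of 5.18, 7 reads) and not in OCI-Ly1 (0.344, 2 reads). Within 50 bp of its passing summit, 12.1% of the 36-mers and 0% of the 75-mers are repeated.

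Among the passing pathway peaks reported here, only that of RFXANK held CCGGAA within 50 bp of its summit. The passing peaks of PSME2, TAPBPL, HLA-F, IRF2, NFYA and NFYC held none. These peaks are too few for a contrast with the member peaks, and none was tested. The RFXANK peak passed in all 3 libraries. Shown are 30 bases under it (chr19:19303017-19303046, plus strand), with the complement of CCGGAA in capitals.
RFXANK: gcacggctcctgTTCCGGtgtcagagggcc

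**Figure D5:**
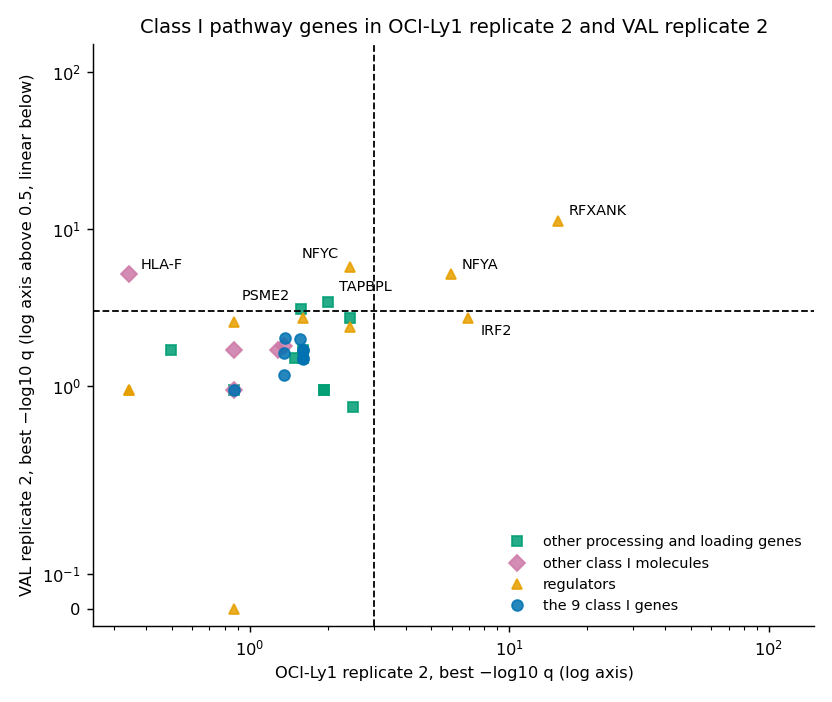
The best −log10 q in OCI-Ly1 replicate 2 (horizontal) is plotted against that in VAL replicate 2 (vertical), on log axes with a linear stretch below 0.5 on the vertical axis and dashed lines at 3, for the 9 class I genes and 26 other genes of the pathway. The 9 genes (blue circles) lie together below and left of both lines, while RFXANK and NFYA lie above and right of both; a gene with no listed peak is drawn at 0.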

How the data were processed

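FLI1 ChIP-Seq libraries of 2 GCB DLBCL lines were analysed. The authors mapped reads to GRCh37 with bowtie2 and kept single-position reads with a mapping quality of at least 10, without duplicates. The submitters' processing notes name BWA, CASAVA 1.4 and hg19. The methods give HOMER at an FDR of 0.001, while the deposited lists have the 10 columns of MACS2, with p up to 0.05 and no stated control or settings. In each list, the score, the fold enrichment (a ratio to the local background), the −log10 p and the −log10 q came from the peak caller the authors ran. They were not compared as amounts between libraries. The score was not used.

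Peaks were assigned to every gene of GENCODE release 44 on GRCh37 with a TSS within 3 kb of the peak centre. Ties in −log10 q went to the higher −log10 p. Reads and background were inferred from the fold, (reads + 1) / (background + 1), and the Poisson p. Reads needed are those reaching the lowest passing −log10 p. Read totals are unknown. No test was run. The genes named were all 9 members, each of 28 pathway genes that passed (except 2 that are counted but not reported here), and the 3 genes nearest to B2M. The others named were chosen after their values were seen. Members, lists and rules were chosen with earlier results of these data known. Alternatives covered threshold, fold, promoter, assignment and replicates. Scripts were tested on simulated data. Tools were scipy 1.17.1, pysam 0.24.0, numba 0.67.0, pandas 2.3.3, samtools 1.23.1 and Python 3.11.15.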

Additional observations from a re-analysis of the deposited data

How the results depend on the processing

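At a −log10 q of at least 2, 1 member (B2M) passed in VAL replicate 2, and so 1 in VAL, and other class I pathway genes numbered 10 in OCI-Ly1 and 13 in VAL replicate 2. With a passing peak within 10 kb of the gene, an alternative added after seeing the data, 1 member (TAPBP) was counted in OCI-Ly1 and 1 in VAL replicate 2, 1 in VAL and 1 in both cell lines, which follows from the wider window. Assigning peaks by their summits, which could have raised the count, also gave 0 members. The other alternatives were a −log10 q of 5, a fold of 4, 1 kb, protein coding transcripts, the closest TSS and peaks in both VAL replicates. Each keeps only a part of what the main rule counts, so from 0 members it could only give 0. The same holds for leaving out VAL replicate 1 or 2, which gave 0 members in VAL and in both cell lines. Of 66 single member values recomputed, 64 stayed within the Poisson interval of the main peak and 0 passed. The other 2 were HLA-E in VAL replicate 2, at 0.062 within 1 kb and by summit. At so few reads the intervals are wide, so staying within them says little about stability. Within 1 kb or with protein coding transcripts a value could not rise, so none could pass there. The 66 leave out settings under which a gene had no listed peak left. This happened in VAL replicate 1 for HLA-B within 1 kb and with protein coding transcripts, and for HLA-C within 1 kb. No member peak passed, so no share of passing member peaks with CCGGAA could be computed. No paired analysis was possible because no test was run and each list was called on its own library. Read totals are unknown, so the part of depth in the count of 0 was not tested; 2 to 3 reads separated the members from passing in OCI-Ly1 and VAL replicate 2, and 5 to 8 in VAL replicate 1.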
